A study of Mus musculus with 2 samples.

Results

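The Mir379 to Mir410 array is a run of microRNA genes in the imprinted Dlk1-Dio3 domain of mouse chromosome 12. Its 40 members were taken by gene symbol from a list of the array's genes. The rule used no measured value, but the list was chosen with earlier results of these data known. All 40 were found among the 2202 microRNA genes of the deposited tables. They were described in microRNA-seq libraries of gastrocnemius, a calf muscle that extends the ankle. There was 1 group with 2 libraries, named in the labels as biological replicates 1 and 2 and made from inserts under 30 nt. The mice were B6CASTF1/J males, hybrids of a C57BL/6J by CAST/EiJ cross, in adulthood at 18 to 20 months. No treatment, altered allele or second condition was named, so the libraries could only be compared with each other. The biosamples were separate, but the labels gave both the same donor record and did not state separate animals, so any p-value below measures the difference between these libraries, which may be technical.

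In imprinted regions a gene is active on the chromosome from 1 parent and silent on the other. In the Dlk1-Dio3 domain the protein genes Dlk1 and Dio3 are expressed from the paternal chromosome, while the long noncoding RNAs and the microRNAs, among them the host transcript Mirg, are made from the maternal one. The microRNAs of the array are cut as hairpins from long transcripts, and each hairpin can give a mature microRNA from its 5′ arm (5p) and its 3′ arm (3p). They are best known from the embryo, the placenta and the brain, where miR-134 restrains Limk1 in dendritic spines and miR-376 precursors are edited from adenosine to inosine. A microRNA recognises its targets mainly through the seed, bases 2 to 8 from its 5′ end. The deposited counts are summed per hairpin gene, so neither the 2 arms nor the parental chromosomes could be told apart.

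Along chromosome 12 of mm10, 39 members lay within 38.901 kb from the start of Mir379 (ENSMUSG00000065498.4, chr12:109709060-109709125) to the end of Mir3072 (ENSMUSG00000093351.1, chr12:109747878-109747960). Of these, 38 were on the plus strand, and Mir299b was on the minus strand opposite Mir299a. The annotated Mirg gene (chr12:109729764-109749460) held 14 members, 9 in exons and 5 in introns, and the other 25 lay before its annotated start. Neighbouring plus-strand hairpins were 0.021 to 4.369 kb apart, with a median of 0.591 kb. Mir3544 (chr12:109585813-109585873, minus strand) did not lie in the run: its end was 123.187 kb before Mir379, and it overlapped Mir337 on the other strand.

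RefSeq (GRCm38.p6) gave 75 mature sequences for the 40 members, 18 to 25 nt long, with 68 distinct seeds. Among the listed sequences 7 seeds were shared, each by a pair of members, and no other mouse gene of that table had one of these 7. Mir376c, Mir487b, Mir539, Mir485 and Mir453 had a single listed sequence each, so seeds of their unlisted arms were not compared. The mature sequences of the 2 most abundant hairpins, Mir379 and Mir411, are shown first, with the 5p sequence of Mir1193, which shares the 5p seed of Mir379. Sequences run 5′ to 3′, and capitals mark the seed.
mmu-miR-379-5p: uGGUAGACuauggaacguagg
mmu-miR-1193-5p: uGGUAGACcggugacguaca
mmu-miR-411-5p: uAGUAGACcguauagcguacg
mmu-miR-379-3p: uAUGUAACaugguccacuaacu
mmu-miR-411-3p: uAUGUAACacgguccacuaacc
Counting from 1 at the 5′ end of the sequence named first, miR-379-3p and miR-411-3p differed by U10C and U22C, both outside the seed. The 5p arms of this pair differed at 7 positions, of which G2A is in the seed. The 5p arms of Mir376c and Mir376b shared a seed and differed by U19G alone.
mmu-miR-376c-5p: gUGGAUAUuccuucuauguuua
mmu-miR-376b-5p: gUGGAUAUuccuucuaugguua
Mir299a and Mir299b are transcribed from opposite strands of the same hairpin, and their 3p arms shared a seed.
mmu-miR-299a-3p: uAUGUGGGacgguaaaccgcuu
mmu-miR-299b-3p: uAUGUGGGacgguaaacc
Both mature sequences of Mir299b lay whole within the Mir299a hairpin, the only 2 of the 75 found whole in another hairpin of the table's 1005.

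Short runs of bases also recurred across the array. The run GGUCCACUA, searched on the mature strand only, was in 4 of the 75 array sequences (5.33%) and in 0 of the 1663 other mouse mature sequences of the table. These 4 were 3p arms, shown with the run in capitals.
mmu-miR-379-3p: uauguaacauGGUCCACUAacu
mmu-miR-411-3p: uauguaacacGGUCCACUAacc
mmu-miR-758-3p: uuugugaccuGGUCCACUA
mmu-miR-412-3p: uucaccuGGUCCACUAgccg
The run AGGUUNNCC, where N is any base, was in 7 of the 75 (9.33%), all 5p arms, against 3 of the other 1663 (0.180%). Sequences of 4 of these members are shown with that run in capitals, which here covers part or all of the seed.
mmu-miR-154-5p: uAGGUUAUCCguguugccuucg
mmu-miR-409-5p: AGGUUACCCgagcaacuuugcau
mmu-miR-381-5p: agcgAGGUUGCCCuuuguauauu
mmu-miR-496a-5p: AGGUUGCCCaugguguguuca
Both runs were chosen after these sequences were read, and a match is a description of the letters. A stretch of 20 bases also occurring in a microRNA gene elsewhere was found in 5 hairpins (Mir411 with Mir758, and Mir376b with Mir376c and Mir487b), against 1087 of the 2202 genes (49.4%). Genes that overlap were not compared, so Mir299a and Mir299b, whose hairpins share 21 nt, are not among these 5. Reads that map to several places were kept out of the counts. The shared stretches covered at most 12 of 22 nt of a mature Mir411 sequence and 18 of 22 nt of a mature Mir376c or Mir376b sequence, so no listed mature sequence of these 5 members lay whole in its stretch. No 3p sequence was listed for Mir376c or Mir487b, so those arms were not checked.

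Counts assigned to microRNA genes totalled 4442692 in replicate 1 and 2156222 in replicate 2, 15.7% and 19.8% of the reads in their tables. Multimapping reads were 73.8% and 70.2%. Levels are given in CPM, counts scaled to 1000000 assigned counts, for which a gene with 0 counts could lie at up to 0.675 CPM in replicate 1 and 1.39 CPM in replicate 2 (3 counts, counting error only). CPM were not divided by hairpin length, since a small RNA read spans a mature microRNA and not the hairpin. Of the skeletal muscle microRNA genes, 9 of 9 had counts in both libraries, summing to 16413 and 65700 CPM, a weak check of the tissue label. Mir206, known as a muscle microRNA, made up most of the sum, with 11810 CPM in replicate 1 and 61540 CPM in replicate 2. Some other genes of this list were low: Mir1a-2 was at 183 and 81.2 CPM and Mir1a-1 at 19.1 and 6.96 CPM. Mir133a-1 was at 14.9 and 11.1 CPM, and Mir133a-2 at 3.83 and 2.32 CPM. Reads that map to several places were kept out, and what they would add to these genes is not known. In the exact test described below 3 of the 9 were called higher in replicate 2 and 4 higher in replicate 1, so the sum does not show the direction of the list. Over all tested genes 61.8% were called, 31.6% higher in replicate 1 and 30.3% in replicate 2, so calls of marker genes are common in any list. Summed levels of the marker lists of other cell types also differed between replicates 1 and 2. The endothelial gene Mir126a was at 104418 and 55386 CPM, the 2 erythroid genes summed to 777 and 109 CPM, and the 4 leukocyte genes to 2285 and 3632 CPM, with 2 of these called higher in each library. The 2 mural genes summed to 48845 and 56840 CPM, the 4 fibroblast genes to 1654 and 416 CPM with Mir199a-1 at 0, and the liver gene Mir122 was at 13.3 and 396 CPM. The 6 epithelial genes summed to 63.9 and 14.8 CPM. Of the 10 neural genes, which summed to 613 and 777 CPM, Mir124a-1, Mir124a-2, Mir124a-3, Mir9-1 and Mir9-2 were at 0 in both libraries, and Mir128-1 carried most of the sum with 592 and 709 CPM. The bound given above for 0 counts does not cover reads that map to several places. For a gene with copies elsewhere a 0 is therefore not evidence of a low level. The part of these differences in the values of the array was not tested, and in whole tissue fewer cells of a type and less RNA per cell cannot be told apart.

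The array was expressed at a low summed level that rested on a few hairpins. It held 8506 counts in replicate 1 and 2862 in replicate 2. These were 0.191% (95% Wilson interval 0.187 to 0.196) and 0.133% (0.128 to 0.138) of assigned counts, a mean of 0.162% ± 0.0415 (SD, n = 2). Summed over its members the array was at 1915 and 1327 CPM. For scale, the most abundant microRNA gene of the tables, Mir378a, was at 159985 and 185734 CPM, and Mir127, a single hairpin of the same domain, was at 968 and 947 CPM. The intervals cover counting error only, since reads without molecular identifiers are not independent molecules.

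Taking a level of at least 2 CPM in each library as detection, 26 of the 40 members were detected (65.0%), against 324 of all 2202 genes (14.7%). At least 1 count in each library was found for 33 members. Mir299b, Mir758, Mir654 and Mir453 had no count in either. A further 4 had fewer than 10 counts over both libraries and were not tested: Mir3544 (1 and 0), Mir1197 (2 and 0), Mir544 (2 and 0) and Mir410 (4 and 4). Mir410, which gives the array its name at this end, thus had 4 counts in each library, while Mir369, another member inside Mirg, was at 53.3 and 27.4 CPM. The remaining 32 members entered the comparison of the libraries. Just inside the minimum of 10 counts were Mir412 with 11 and Mir3072 with 16, and just outside it was Mir410 with 8. By mean level, 4 members were at 100 CPM or more, 13 at 10 to 100 CPM, 16 at 1 to 10 CPM and 3 above 0 but under 1 CPM. Among the 26 detected members the mean level spanned 184-fold, from Mir411 down to Mir495 at 2.96 CPM. The median mean level of the 32 tested members was 11.5 CPM, against 29.9 CPM over all 380 tested genes.

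**Figure D1:**
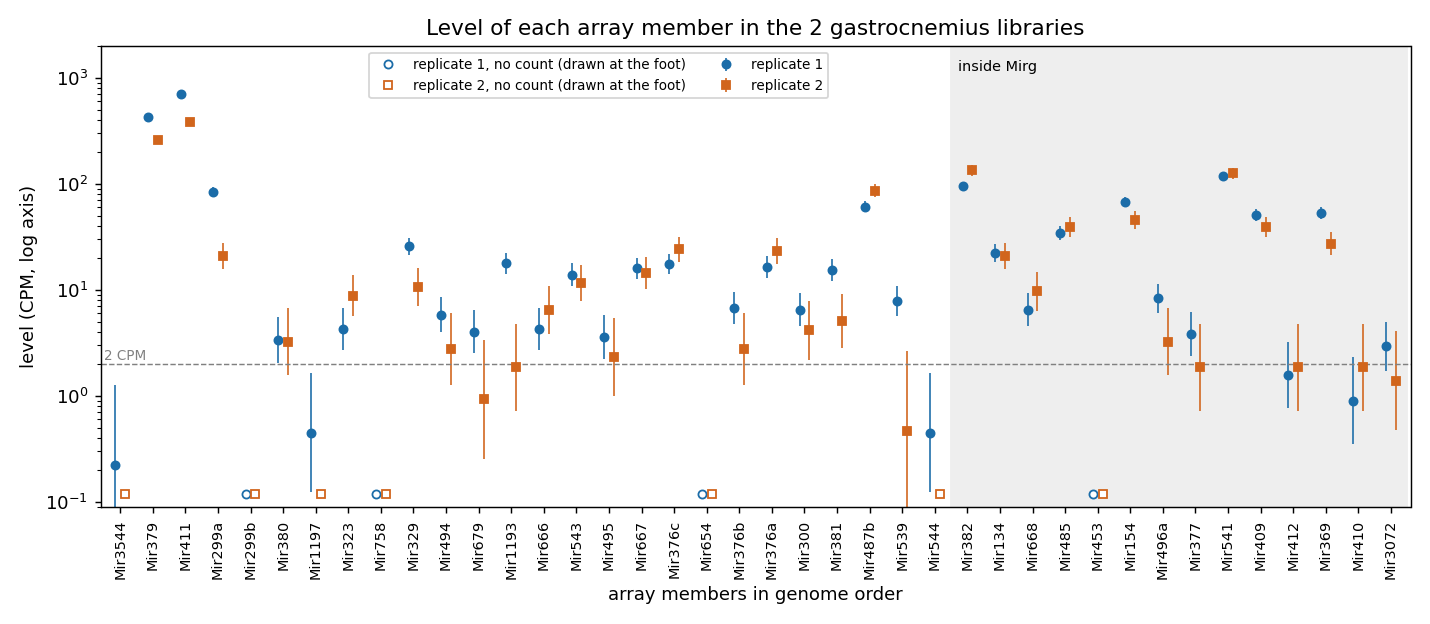
Level of each of the 40 members in CPM (log axis) in replicate 1 (circles) and replicate 2 (squares), in genome order, with 95% Wilson intervals of the counts as vertical lines, open symbols at the foot for no count, a dashed line at 2 CPM and grey shading for the members inside Mirg. Mir411 and Mir379, near the start, stand highest in both libraries, and near the end Mir412 lies low between Mir409 and Mir369.

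Mir411 (ENSMUSG00000065477.3, chr12:109710175-109710256) was the highest member, with 704 CPM in replicate 1 and 383 CPM in replicate 2 (544 ± 227, SD, n = 2), rank 62 and 81 among all genes. Mir379, 1.115 kb before it from start to start, had 429 and 262 CPM (345 ± 118), rank 83 and 92. Mir411 was above Mir379 in both libraries, by 1.64 and 1.46 times in counts, yet the ranges of the pair over the libraries overlapped. Mir379 and Mir411 together held 59.2% (Wilson interval 58.1 to 60.2) of the array's counts in replicate 1 and 48.6% (46.7 to 50.4) in replicate 2. Without them the array was 0.0782% and 0.0683% of assigned counts. The first 3 hairpins of the run, Mir379, Mir411 and Mir299a, spanned 1.641 kb and held 63.6% and 50.1%.

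The next 2 members by mean level lay inside Mirg. Mir541 (chr12:109742409-109742498, intron) had 118 and 126 CPM, and Mir382 (chr12:109733771-109733846, exon) had 95.4 and 134 CPM. Their order changed between the libraries: Mir541 was higher in replicate 1 and Mir382 in replicate 2. Mir487b, before Mirg, followed with 61.0 and 86.3 CPM, and Mir154, inside it, with 67.5 and 45.9 CPM. Mir299a, the third hairpin of the run, had 84.0 and 20.9 CPM (52.4 ± 44.6), the widest relative spread of the 12 highest members. Mir409 had 51.1 and 39.4 CPM, Mir369 53.3 and 27.4 CPM, and Mir485 34.4 and 39.0 CPM. Mir134, the member studied for its part in dendritic spines, had 22.3 and 20.9 CPM, and Mir376c had 17.6 and 24.1 CPM. Of the 11 neighbouring pairs in this order of 12, the library ranges overlapped for 8 and were apart for Mir379 and Mir541, Mir382 and Mir487b, and Mir485 and Mir134. These 12 members carried 90.7% and 91.1% of the array's counts.

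**Figure D2:**
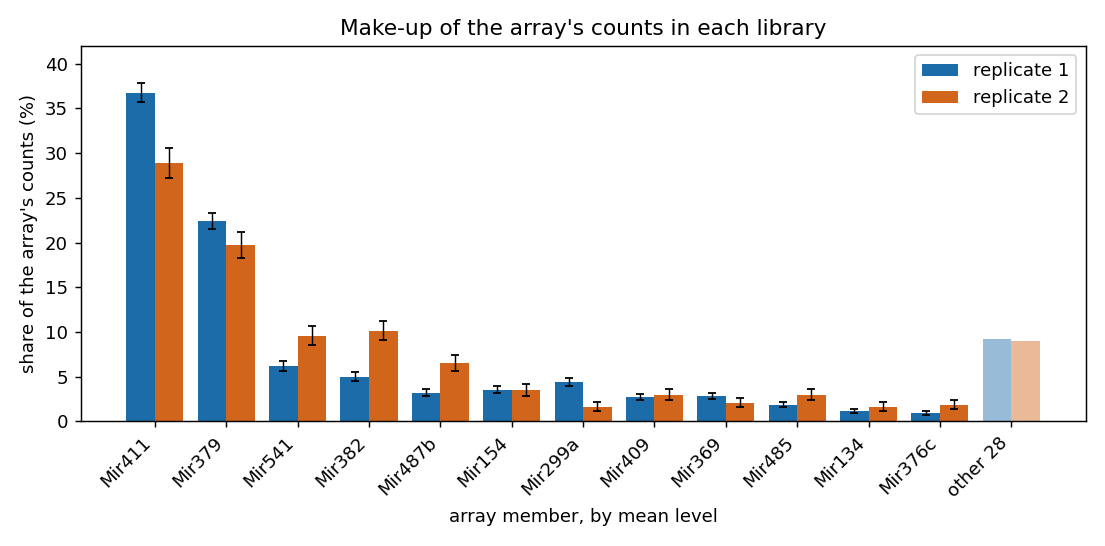
Share of the array's counts (percent, from 0) held by each of the 12 highest members and by the other 28 together, in replicate 1 and replicate 2, with 95% Wilson intervals on the 12 single members. Mir411 held 36.8% in replicate 1 and 28.9% in replicate 2, and Mir382 held 4.98% and 10.1%.

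The pairs with a shared seed are given next as levels, with no test of the difference within a pair. Mir1193, which has the 5p seed of Mir379, was at 17.8 and 1.86 CPM. Mir376b, with the 5p seed of Mir376c, was at 6.75 and 2.78 CPM, and Mir376c had 2.60 and 8.67 times its counts. Mir376a, the other detected hairpin of this family, had 16.4 and 23.2 CPM. Mir494, whose 5p seed Mir410 shares, had 26 and 6 counts against 4 and 4, and Mir1197 and Mir758, which share a 5p seed, had 2 counts and none over both libraries. Mir496a, whose 5p seed Mir453 shares, was at 8.33 and 3.25 CPM. Mir299a had 373 and 45 counts on its strand and Mir299b had none. Both mature sequences of Mir299b lie whole in the Mir299a hairpin, so reads matching them map to several places and were kept out. The 0 of Mir299b therefore does not show whether the minus strand was transcribed. Mir3544 had 1 count in all against 353 and 108 for Mir337 on the other strand. Counts on the opposite strand of plus-strand members were 0 in both libraries. A microRNA gene lay on the other strand of 7 members, and the 6 of these with counts on their own strand had none in the counts made without strand.

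Members before Mirg carried 75.6% (74.7 to 76.5) of the array's counts in replicate 1 and 65.9% (64.1 to 67.6) in replicate 2, and those inside it 24.3% and 34.1%. The typical member was nonetheless higher inside Mirg: the median mean level of the tested members was 29.1 CPM over 12 inside it and 10.01 CPM over 20 before it. This difference was not tested. Across the 32 tested members the mean level had a Spearman correlation of -0.07 with the order along the array, -0.11 with the GC content of the hairpin and 0.00 with its length, each a description over genes that share the same 2 libraries.

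Between the libraries, the 3 hairpins Mir379, Mir411 and Mir299a and 6 further members were called higher in replicate 1, and Mir382, Mir487b and Mir323 higher in replicate 2. Log2 ratios are of replicate 2 over replicate 1 after TMM scaling with 1 CPM added, which understates the ratio of low genes, and their intervals are exact 95% intervals of the counts without that addition. An exact two-sided binomial test of the counts, with Benjamini-Hochberg adjustment over all 380 tested genes, called 12 of the 32 members (37.5%) at an adjusted p under 0.05. The same test called 61.8% of all tested genes, so at this count filter the share among the members was below the background. Of the 12, 9 were higher in replicate 1 (28.1% of the members, background 31.6%) and 3 in replicate 2 (9.38%, background 30.3%). With 20 counts or more as the minimum, 15 of 30 members were called against 68% of all 331 genes, 9 higher in replicate 1 (background 31.4%) and 6 in replicate 2 (background 36.6%). With no count filter, where genes under 10 counts entered, the shares were close: 33.3% of 36 members and 35.0% of 643 genes. The median log2 ratio was -0.43 over the tested members and 0.02 over all tested genes. A ratio below 0 was found for 21 of 32 members and 188 of 380 genes (49.5%). A test passes more easily with more counts: among genes with 100 or more, 81.1% were called in all (42.1% higher in replicate 1), and 8 of 15 members were, 6 of them higher in replicate 1. The median over these 15 members was -0.06, against -0.02 over all 228 such genes. The log2 ratios spread less among the members (SD 0.894) than among all tested genes (SD 1.14).

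**Figure D3:**
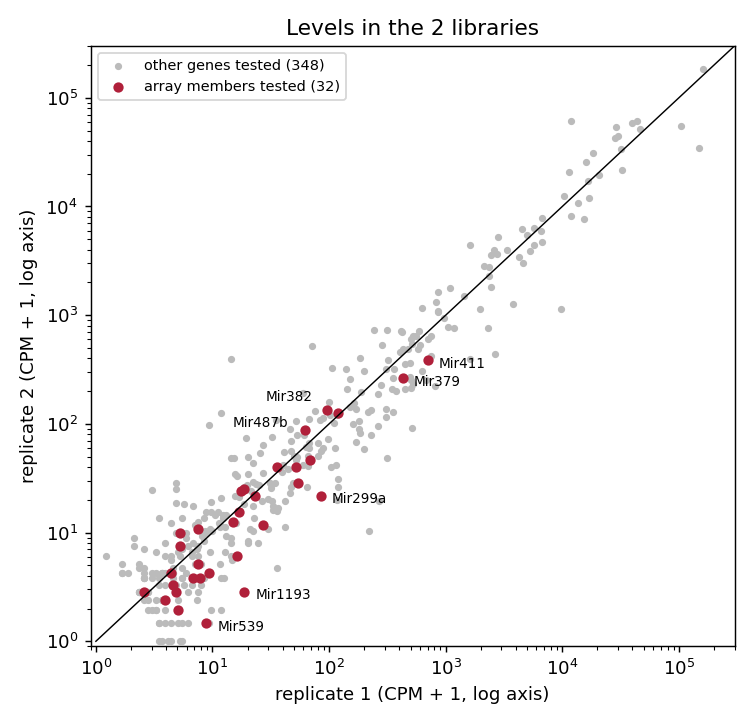
Level in replicate 2 against replicate 1 (CPM + 1, log axes) for the 32 tested members in red and the 348 other tested genes in grey, with the line of equal levels. Mir299a, Mir1193 and Mir539 lie below the line, Mir382 and Mir487b above it, and the members stay within the spread of the other genes.

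Mir411 was lower in replicate 2 by a log2 ratio of -0.78 (-0.90 to -0.67, adjusted p = 1.59e-47 in the exact binomial test). Mir379, its neighbour, differed by -0.62 (-0.76 to -0.48, adjusted p = 8.28e-20 in the exact test). Mir299a, next in the run, had the largest difference of the 12 most abundant members at -1.87 (-2.40 to -1.47, adjusted p = 2.22e-22 in the exact test). These 3 neighbours were all higher in replicate 1, but by unequal amounts, since the intervals of Mir299a and of the other 2 did not overlap.

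A ratio of 2-fold or more together with a call was found for 5 members (15.6%, background 28.7%), all higher in replicate 1 (background in that direction 16.6%). They were Mir299a, Mir329, Mir1193, Mir381 and Mir539, all before Mirg. Mir1193 had 79 counts in replicate 1 and 4 in replicate 2, a log2 ratio of -2.65 (-5.08 to -1.75, adjusted p = 1.10e-08 in the exact test). Mir539 had 35 counts and 1, a log2 ratio of -2.55 (-9.34 to -1.42, adjusted p = 8.81e-05 in the exact test), so its size was hardly bounded. Mir329 had 25.9 and 10.7 CPM (log2 ratio -1.12, adjusted p = 0.000337 in the exact test). Mir381 had 15.3 and 5.10 CPM (log2 ratio -1.34, adjusted p = 0.00123 in the exact test). That call was lost when replicate 1 was thinned, in a single random draw, to the total of replicate 2 (log2 ratio -0.92, adjusted p = 0.0723 in the exact test).

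Smaller differences in the same direction were called for Mir369 (log2 ratio -0.85, adjusted p = 3.54e-05, exact test) and Mir154 (-0.46, adjusted p = 0.00933, exact test), and that of Mir154 was lost in the thinned library (adjusted p = 0.0829). In the other direction, Mir382 and Mir487b had nearly the same log2 ratio, 0.58 (0.36 to 0.80) and 0.59 (0.32 to 0.87), with adjusted p = 4.94e-07 and 5.26e-05 in the exact test. They lie on either side of the annotated start of Mirg, with Mir539 and Mir544 between them. The third gene higher in replicate 2 was Mir323, described here because it was called, with 19 counts in each library and so 4.28 and 8.81 CPM (log2 ratio 0.98, adjusted p = 0.0361 in the exact test). That call was lost with plain library totals (adjusted p = 0.0587) and with no count filter (0.0992).

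**Figure D4:**
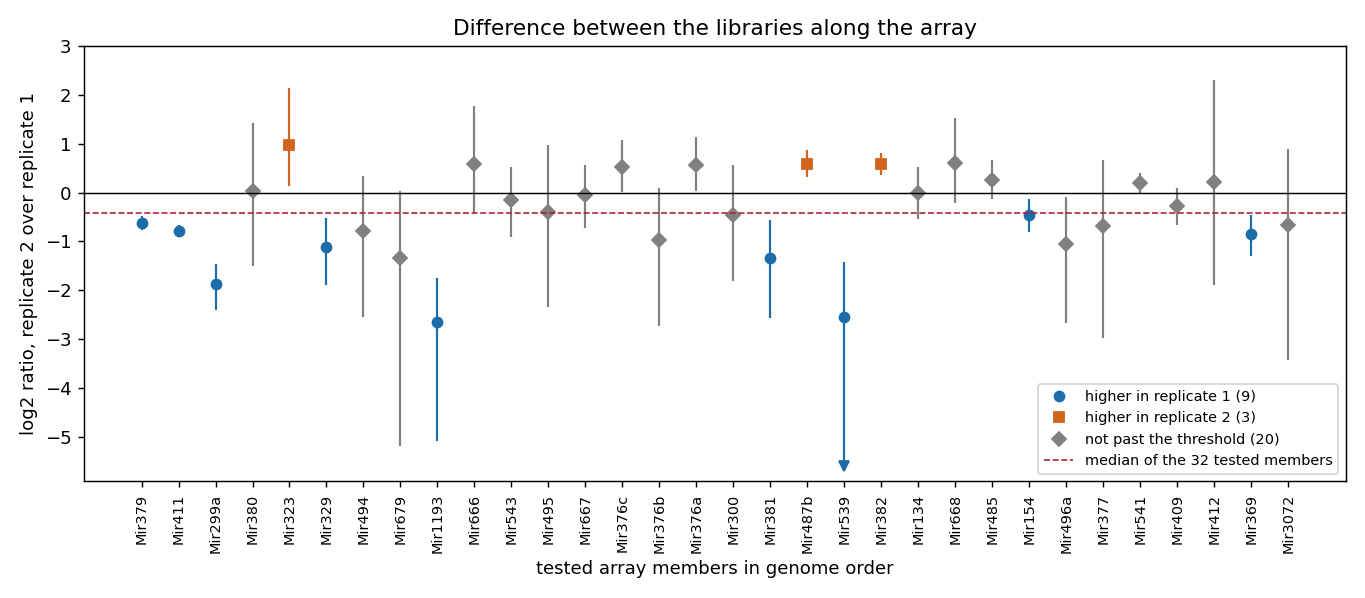
Log2 ratio of replicate 2 over replicate 1 for the 32 tested members in genome order, with exact 95% intervals of the counts as vertical lines (a triangle marks one that runs off the axis) and a dashed line at the members' median. Circles are the 9 members higher in replicate 1, squares the 3 higher in replicate 2 and diamonds the 20 not past the threshold. Members called in either direction lie beside members that were not.

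For several well-counted members the difference did not pass the threshold. Mir134 had a log2 ratio of -0.0013 (-0.54 to 0.52), Mir541 one of 0.19 (-0.03 to 0.40), Mir485 one of 0.26 (-0.13 to 0.66) and Mir409 one of -0.27 (-0.66 to 0.08). The intervals of all 4 leave out a change of 2-fold in either direction. With 20 counts or more as the minimum, Mir541 was called higher in replicate 2 (log2 ratio 0.26, adjusted p = 0.0258 in the exact test). Mir376c (0.53, adjusted p = 0.0577 in the exact test) and Mir376a (0.56, adjusted p = 0.0509 in the exact test) lay just short of the threshold, with ratios above 0, while Mir376b of the same family was at -0.96 with an interval of -2.74 to 0.10. Mir376c and Mir376a were also called with that minimum (adjusted p = 0.0319 and 0.0220 in the exact test). Mir496a (-1.06, adjusted p = 0.0527 in the exact test) was called with DESeq2 size factors, plain totals, no count filter and the counts made without strand. Below the 12 highest members, 15 of 20 tested members were not past the threshold, with log2 ratios from -1.34 to 0.60.

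By position, 9 of 20 tested members before Mirg were called (background 61.8% in either direction), 7 higher in replicate 1 and 2 in replicate 2, with a median log2 ratio of -0.54. Inside Mirg 3 of 12 were called, 2 higher in replicate 1 and 1 in replicate 2, with a median of -0.14. Neighbouring tested members differed in log2 ratio by a median of 0.747 over 31 pairs, and all 496 pairs of tested members by 0.850. The log2 ratio had a Spearman correlation of 0.15 with order along the array, 0.28 with GC content and 0.02 with hairpin length over the 32 members. Their CPM in the libraries had a Spearman correlation of 0.86, against 0.93 over all tested genes. These correlations are descriptions across genes, which are not independent replicates.

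The other microRNA genes of the Dlk1-Dio3 domain, nearer to Dlk1, were taken as a list of 22 symbols, of which 18 were found and 13 tested. They summed to 1304 and 1263 CPM, 0.130% and 0.126% of assigned counts, so the summed level of the 40 array members was above theirs in both libraries. That order rested on a few members. With the 5 members that share 20 bases with another locus left out, Mir411 among them, the array's mean share was 0.0978%, below both values. Of the 13, 9 were called, 6 higher in replicate 1 and 3 in the other direction. The share called among all tested genes was 61.8%, so at this count filter that of this list, 69.2%, was near the background. With no count filter the list's share stayed at 69.2%, against 35.0% of 643 genes, a background that takes in genes with few counts. The median log2 ratio of the 13 was -0.56, but it was 0.04 with the counts made without strand (11 genes), -0.19 with 20 counts or more or with replicate 1 thinned, and -0.24 with 5 CPM added. Mir127, which lies opposite the imprinted gene Rtl1, was the highest with 968 and 947 CPM (log2 ratio 0.06, interval -0.02 to 0.14). The array had 1.98 times its CPM in replicate 1 and 1.40 times in replicate 2. Mir434 was at 118 and 30.1 CPM, Mir337 at 79.5 and 50.1 CPM and Mir431 at 40.5 and 18.6 CPM, each called higher in replicate 1. Mir433, at 31.5 and 74.2 CPM, and Mir770, at 8.33 and 96.5 CPM, were called higher in replicate 2.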

How the data were processed

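The authors deposited unnormalized read counts for each microRNA gene, on mm10 and GENCODE M21 per their readmes. Which aligner, trimming and counter they used is not given in the sources used here. A table holds 3 columns of counts, taken from their values to be without strand, on the gene's strand (used here) and on the opposite strand. Rows for reads in no gene stayed out of totals. Symbols and positions came from M21, and sequences from the RefSeq tables (GRCm38.p6).

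CPM used all assigned counts. Genes reaching 10 counts over both libraries were scaled by TMM (edgeR 4.0.16) and entered an exact two-sided binomial test, which counts counting error only, with Benjamini-Hochberg adjustment. This fits 1 group of 2 libraries, which has no contrast of conditions and no named batch. In data simulated with counting error only (379 genes), this comparison of the libraries found 77.9% of 95 with a 2-fold change and 95.9% of 97 with a 4-fold change, and called 3.21% of 187 with none.

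The members and lists were chosen with earlier results of these data known. The rule for names took the 12 highest members, those called with a 2-fold ratio, tested members sharing a seed with another member, members overlapping on opposite strands, up to 6 other Dlk1-Dio3 genes, up to 2 genes of each marker list and the most abundant gene. Others named were chosen after their values were seen. The marker lists were skeletal muscle, endothelial, erythroid, leukocyte, mural, fibroblast, neural, epithelial and liver. Alternatives were DESeq2 1.42.0 size factors, plain totals, other count filters, pseudocounts and detection thresholds, counts without strand, a total without the most abundant gene, replicate 1 thinned, members sharing 20 bases left out, and each library alone. The thinning was a single random draw that leaves replicate 1 with fewer counts, so calls lost in it rest on that draw. R 4.3.3 and Python 3.11.15 with scipy 1.17.1 were used.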

Additional observations from a re-analysis of the deposited data

How the results depend on the processing

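The array's mean share of assigned counts, 0.162%, was 0.208% with the counts made without strand and 0.0978% with the 5 members that share 20 bases with another locus left out, which removes Mir411. No member had more counts without strand than on its strand (Mir411 had 3129 and 826 in both). The higher share without strand thus came from a smaller total of assigned counts. Each library alone gave 0.133% and 0.191%, and from 26 to 31 members detected. At 1 CPM 30 members were detected and at 5 CPM 18. Between 10 and 15 members were called under 7 alternatives, against 12, and the median log2 ratio ranged from -0.53 to -0.27. The members tested ran from 27 to 36, and their share called from 32.3% (thinned) to 50.0% (20 counts or more). Over all tested genes the share called ran from 35.0% (no filter) to 68.0% (20 counts or more). Another scaling or filter moved all log2 ratios by -0.15 (no filter) to 0.07 (20 counts or more). Over the tested members, calls were gained by Mir496a (4 alternatives) and by Mir376a, Mir376c and Mir541 (20 counts or more), and lost by Mir323 (plain totals, no filter) and by Mir381 and Mir154 (thinned). The log2 ratio of Mir134 turned to 0.0473 when thinned and to 0.06 with 20 counts or more. Mir380, Mir667 and Mir543, also near 0 and not called, changed sign in some alternatives. The cause was not tested. Mir299a and Mir539 could not be tested without strand, where they had no counts. The other Dlk1-Dio3 genes called ranged from 7 to 10, or 63.6% (counts without strand) to 83.3% (20 counts or more) of those tested. Members under about 2 CPM rest on a few counts. No paired analysis was possible because there is 1 group, and a comparison of the libraries cannot leave one out.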
